A study of Drosophila melanogaster with 9 samples.

Results

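FLAG-tagged Pita was mapped by chromatin immunoprecipitation and sequencing (ChIP-seq) in whole Drosophila melanogaster embryos of 2 transgenic lines, Pita wt and Pita dCP1+2, and the 2 resulting peak lists were compared over all their peaks. The list of the Pita wt line held 6901 FLAG peaks and that of the Pita dCP1+2 line held 7365, or 14266 of the 29281 peaks in the 4 lists of the series. Each list came from 2 replicate FLAG samples of its line. A peak was represented by a window of 250 bp on each side of its summit, the base with the highest signal, and windows that shared at least 1 bp were taken as the same site. A Pita wt peak with such a partner in Pita dCP1+2 is called kept and one without is called lost, while a Pita dCP1+2 peak without a partner in Pita wt is called gained.

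Both proteins carried a 3xFLAG tag and were expressed from the ubiquitous Ubi-p63E promoter, with both transgenes inserted at the same genomic landing site. The Pita wt transgene encoded the complete protein, and the Pita dCP1+2 transgene lacked both regions of Pita that bind the BTB domain of CP190. The strain label was Oregon-R for every sample, and the state of the endogenous pita gene in the embryos used for ChIP was not given in the sources used here. According to the labels the embryos were collected over 12 h, while the methods of the study give a later and different window. The labels also name single-end and the methods paired-end sequencing, which the files do not settle. A single preimmune sample, from Pita wt embryos, was the control for both lists, so the Pita dCP1+2 list was called against chromatin of the other line. Signal in the embryos is an average over all their tissues. The 2 replicates were merged by the authors before the lists were written. Read depth and replicate spread behind each peak are therefore unknown here, and the classes are described without any test. For whole lists, the study's supplement gives a self-consistency ratio of the replicates. That of the Pita wt FLAG list was above the limit named in the methods, and that of the Pita dCP1+2 FLAG list was below it. The 95% Wilson intervals below cover counting error only, since neighbouring peaks are not independent.

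Pita is a Drosophila architectural protein with an N-terminal zinc-finger-associated domain, which lets the protein pair with itself, and a cluster of C2H2 zinc fingers that reads DNA. It is known from promoters and from boundaries of the Bithorax complex, where it helps to keep regulatory domains apart. CP190 does not itself read a long DNA motif and is brought to chromatin by several DNA-binding proteins, Pita among them. The deletion removes the contact with CP190 and leaves the zinc fingers in place.

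The DNA letters that Pita prefers are shown first, because lost, kept and gained peaks differed in how often they held them. A published Pita matrix of 21 positions was scanned along both strands of every window on the dm6 assembly, and a match is described by the probability of its score under equal base frequencies. The matrix was read from page text of the study's supplement, so small errors in its weights are possible. Its most decisive letters lie at positions 5 to 7 and 19 to 20, printed in capitals. The best matches under 6 of the strongest lost peaks were as follows, each 5′ to 3′ on the strand of the match.
CG6073: aactAGCaaatacacactCCg
Abd-B: ttttAGCgagtgcaccctCCt
ec: ctttAGCcaagactcaaaCCc
CG3009: gcttAGCgggggctcaatCCg
CG31021: acttAGCaaatgcacccaCCc
scrib: agttAGCtgagaccccaaCCg
These sites lay on dm6 at chr3R:26188881-26188901, chr3R:16969771-16969791, chrX:3811477-3811497, chrX:4667188-4667208, chr3R:30601955-30601975 and chr3R:26566934-26566954, all on the minus strand except the last. The 5 strongest kept peaks held matches with the same capitals.
Atg8a: atttAGCgaatacatgaaCCa
cib: atttAGCagagacacgaaCCa
cindr: cgcgAGCggagacggcaaCCa
ATPsynC: gtgtAGCcaggacttgcaCCg
Tlk: acttAGCgtgtgcaccaaCCa
They lay on the minus strand at chrX:10768415-10768435, chrX:4105864-4105884, chr3R:30808524-30808544, chr3R:31219696-31219716 and chrX:3719863-3719883. A single gained window had a match below 1e-06, which is not printed, and the next best matches under gained peaks were weaker.
lncRNA:CR43963: tgttATTggggacacgaaCCc
CG15258: ccaaAGCcaagacccaagCCa
Yif1: actgAGCcggtcctcgcaCCa
Their positions were chrX:12716024-12716044 and chr2L:15350618-15350638 on the plus strand and chr3R:26721175-26721195 on the minus strand, and their probabilities were 2.13e-06, 2.97e-06 and 4.90e-06. By contrast, the match under the lost peak of ec reached 1.11e-09 and that under the kept peak of cib 2.57e-10. Among windows with a match below 1e-06, the pair of C letters was present in all 58 lost and all 48 kept matches. The A at position 5 was also present in all of them. The G at position 6 was in 58 of 58 lost and 46 of 48 kept matches, and the C at position 7 in 54 and 46. These are the most decisive letters of the matrix, so the limit itself favours them in either class.

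The sequence around the strongest summits is shown for comparison. The 120 bp centred on the strongest lost summit, upstream of CG6073, held the match printed above as its reverse complement, in capitals.
CG6073 summit: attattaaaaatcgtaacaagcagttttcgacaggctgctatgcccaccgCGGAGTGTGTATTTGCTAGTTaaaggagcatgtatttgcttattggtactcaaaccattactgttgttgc
This stretch, chr3R:26188831-26188950, had a GC content of 40.0%. At 2 other strong lost summits, of Abd-B and ec, the same stretch had GC contents of 44.2% and 50.8%, and there the match lay outside the 120 bp. The windows of the 3 strongest gained summits on the chromosome arms held no match below 1e-04, and their central 120 bp read as follows.
Hers summit: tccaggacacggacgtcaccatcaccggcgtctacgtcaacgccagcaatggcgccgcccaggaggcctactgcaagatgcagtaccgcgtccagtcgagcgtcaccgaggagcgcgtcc
lncRNA:CR44183 summit: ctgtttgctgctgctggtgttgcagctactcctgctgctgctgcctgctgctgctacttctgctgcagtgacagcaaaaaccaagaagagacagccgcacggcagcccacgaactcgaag
pico summit: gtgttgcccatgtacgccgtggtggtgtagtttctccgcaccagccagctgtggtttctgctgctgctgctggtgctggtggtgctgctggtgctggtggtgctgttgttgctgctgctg
They lay at chrX:19871378-19871497, chr2L:12933494-12933613 and chrX:19835894-19836013, with GC contents of 65.8%, 57.5% and 60.8%, and the windows of lncRNA:CR44183 and pico carried repeats of the triplet CTG. After these sequences were seen, the word CTGCTGCTG was searched on both strands of all windows. It was present in 22.7% of kept Pita wt windows (1116 of 4924), 14.7% of lost windows (288 of 1959) and 15.9% of gained windows (385 of 2427), beside 4.39% of all 500 bp windows of the arms. The latter were not matched to the peaks in GC content or coding sequence.

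Most FLAG sites were found in both lines. Of the Pita wt peaks, 4938 (71.6%, interval 70.5 to 72.6%) were kept and 1963 (28.4%, 27.4 to 29.5%) were lost. Of the Pita dCP1+2 peaks, 4923 (66.8%, 65.8 to 67.9%) had a Pita wt partner and 2442 (33.2%, 32.1 to 34.2%) were gained. The pairing was close to one to one, since 13 Pita wt peaks had 2 partners and 28 Pita dCP1+2 peaks did. The overlap limit cut through few sites: 49 kept peaks had summits between 450 and 500 bp apart, and 44 lost and 34 gained peaks had their nearest summit of the other list less than 50 bp beyond the limit of 500 bp. The 28.4% and 33.2% are the levels against which the shares of single groups of peaks are read below.

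Lost and gained peaks were on the whole the weaker peaks of their own list. Peaks were ranked by the authors' fold enrichment over the preimmune sample, and ranks were compared within a list because values of separate lists are not on one scale. The lost peaks had a median rank of 4556 and the kept Pita wt peaks one of 2972. For Pita dCP1+2 the medians were 5124.5 for gained and 2832 for kept peaks. Median fold enrichment was 2.02 for lost, 2.20 for kept Pita wt, 1.88 for gained and 2.11 for kept Pita dCP1+2 peaks. Among the weakest 900 Pita wt peaks, 47.9% (44.6 to 51.2%) were lost, and among the weakest 1365 Pita dCP1+2 peaks 57.9% (55.2 to 60.5%) were gained. At the strong end the shares were 9.43% lost between ranks 300 and 1000 of Pita wt and 7.54% gained between the same ranks of Pita dCP1+2. The share of lost peaks did not fall further with strength: it was 7.5% (4.6 to 12.0%) among the next 200 peaks and 13% (7.76 to 21.0%) among the 100 strongest peaks, with overlapping intervals.

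**Figure D1:**
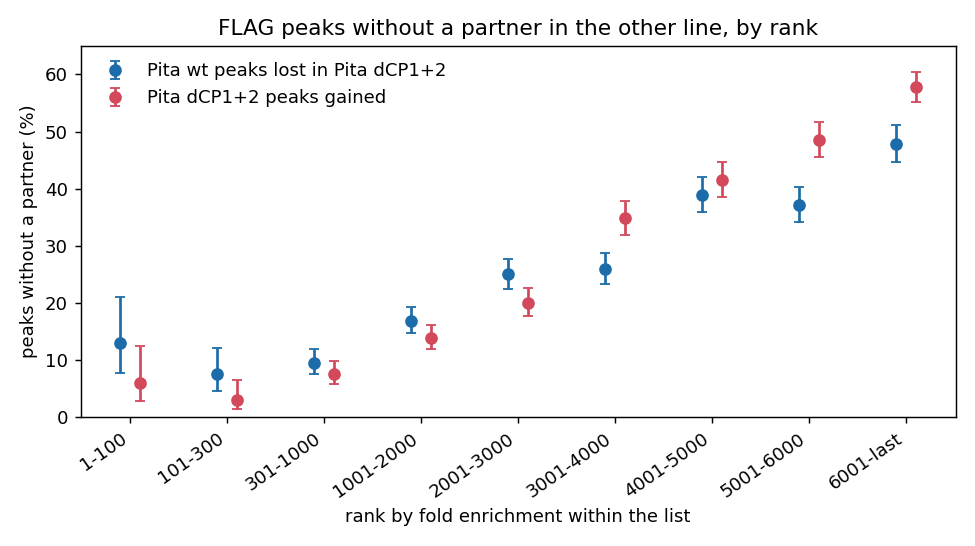
Share of FLAG peaks without a partner in the other line (y axis, %) by rank of fold enrichment within the list (x axis, strongest peaks at the left), for lost Pita wt and gained Pita dCP1+2 peaks. Points are shares and bars are 95% Wilson intervals. Shares rise from 7.5% lost and 3.02% gained between ranks 100 and 300 to 47.9% and 57.9% at the weak end, with 13% lost among the 100 strongest.

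The chromosome arms lost and gained peaks at similar rates. On the 5 large arms 27.8% to 29.5% of the Pita wt peaks were lost, with 2L highest and 3R lowest, and all intervals overlapped. Gained shares ran from 30.9% (28.6 to 33.3%) on 2R to 33.8% (31.6 to 36.0%) on 3R, again with overlapping intervals. The X chromosome held 18.6% of kept, 18.8% of lost and 19.1% of gained peaks. Peak density in Pita wt was 46.7 to 56.8 per Mb on these arms and 5.19 per Mb on chromosome 4, which had 7 peaks in Pita wt, 5 of them lost, and 5 in Pita dCP1+2, 3 of them gained. Outside the arms, the mitochondrial genome had 1 peak in each line, and both were kept. The Y chromosome and its unplaced scaffolds had 2 peaks in Pita wt and 6 in Pita dCP1+2, of which 5 were gained. Scaffolds of no named chromosome had 11 peaks in Pita dCP1+2, of which 7 were gained. Those of X had 11 as well, of which 3 were gained.

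The strongest gained peaks of all lay on Y-linked sequence. A peak on Y_DS483677v1_random was the strongest of the whole Pita dCP1+2 list, with a fold enrichment of 11.5 and a width of 574 bp. The next, on Y_DS485927v1_random, had a fold enrichment of 11.3. Peaks on Y_CP007111v1_random ranked 5 and 8, with fold enrichments of 5.74 and 5.06. The latter was 2088 bp wide, and the Pita wt list had a peak of 251 bp on that scaffold at rank 3217 that counted as lost, with its summit 893 bp away. The scaffold Un_CP007120v1 held a gained peak at rank 26. All 5 of these gained peaks overlapped a CP190 peak of Pita dCP1+2 and none overlapped one of Pita wt, so both antibodies gave the difference, against the same control. Numbers of Y chromosomes in the embryos and in the shared control were not measured, and their part in these peaks was not tested.

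Lost and gained peaks were narrower than kept ones. The deposited width had a median of 395 bp in lost peaks (quartiles 281 and 615) and 536 bp in kept Pita wt peaks (377 and 798). The corresponding medians of Pita dCP1+2 were 447 bp for gained peaks (315 and 705) and 556 bp for kept peaks (385 and 839). Under 300 bp, 51.5% (48.6 to 54.4%) of the Pita wt peaks were lost and 49.1% (46.0 to 52.1%) of the Pita dCP1+2 peaks were gained. Between 500 and 1000 bp these shares were 19.9% and 27.1%. The widest peaks, of 2000 bp or more, stood at 26.9% lost (18.9 to 36.7%, 25 of 93) and 24.7% gained (18.4 to 32.2%, 36 of 146). The difference was present at every strength: in each rank group lost peaks had a smaller median width than kept peaks, for example 367 against 587 bp among the 100 strongest and 463 against 559 bp among the weakest. Gained peaks between ranks 100 and 2000 went the other way, with 1176 against 687 bp in the 6 gained peaks up to rank 300 and 830 against 627.5 bp up to rank 1000, while beyond rank 2000 gained peaks were narrower. Peaks on X were wider in both lists, with medians of 591 and 603 bp against at most 490 and 519 bp on the large autosomal arms.

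**Figure D2:**
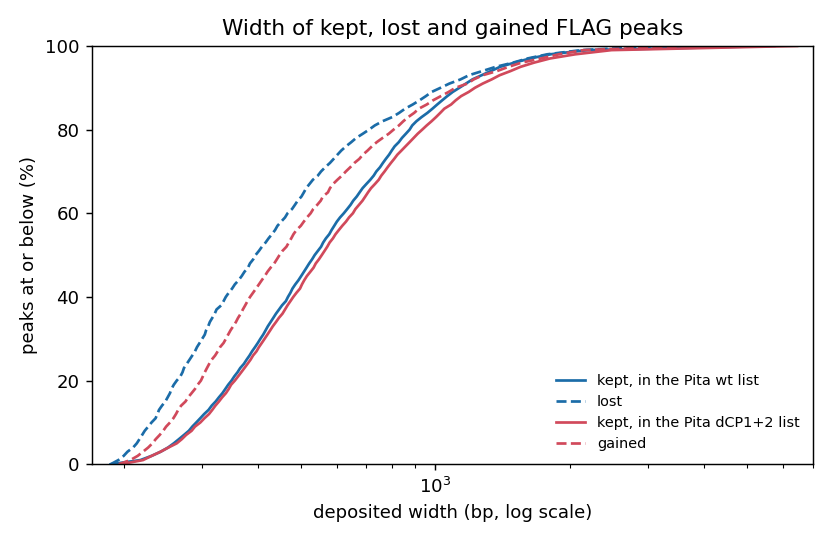
Cumulative share of peaks (y axis, %) by deposited width (x axis, bp, log scale) for kept and lost Pita wt peaks and kept and gained Pita dCP1+2 peaks. The lost curve lies to the left, with a median of 395 bp, followed by gained peaks at 447 bp and kept peaks at 536 and 556 bp.

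Summits of kept peaks stayed close together. The median distance between the paired summits of the lines was 26 bp (quartiles 11 and 56). It was within 50 bp for 72.0% (70.8 to 73.3%) and within 100 bp for 88.3% of the 4938 kept Pita wt peaks. For comparison, each list records the summits of the 2 peak sets that the authors' reproducibility step (IDR) had compared, though it does not say whether these were replicates or random splits of the reads. Within the Pita wt list those summits were 32 bp apart in the median for kept and 30 bp for lost peaks, and within the Pita dCP1+2 list 35 bp for kept and 41 bp for gained peaks. The shift between the lines was thus no larger than the distance inside a list. The limit of 500 bp bounds the distance between the lines but not that inside a list, where it reached 3823 bp.

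**Figure D3:**
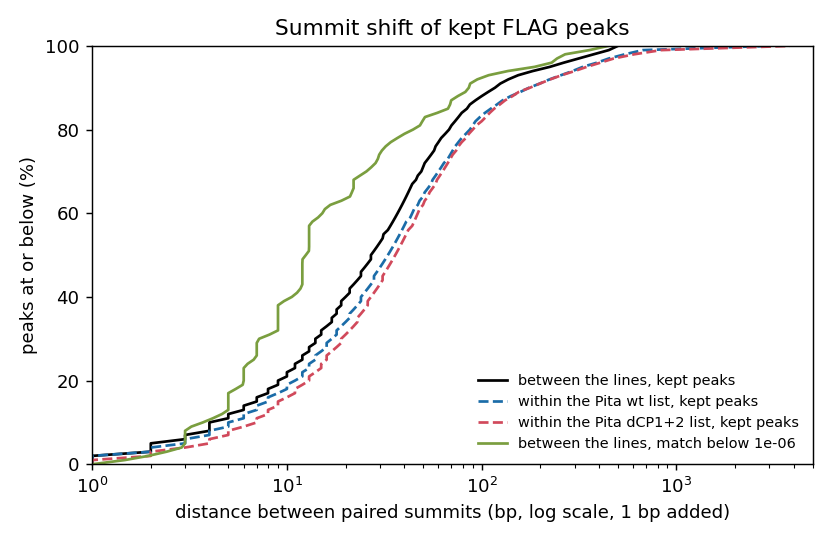
Cumulative share of kept peaks (y axis, %) by distance between paired summits (x axis, bp, log scale with 1 bp added), between the lines and between the peak sets of the reproducibility step inside each list. Medians are 26 bp between the lines, 32 bp inside the Pita wt list, 35 bp inside the Pita dCP1+2 list and 11.5 bp for kept peaks with a Pita match below 1e-06.

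Precision of the summit varied with the kind of peak. Kept peaks under 300 bp wide had a median shift of 17 bp, the strongest 1000 Pita wt peaks 23 bp, and kept peaks below rank 5000 had 34 bp. The 48 kept peaks with a Pita match below 1e-06 had the smallest, 11.5 bp (quartiles 5.75 and 29.75), and the centre of the match lay 42 bp from the Pita wt summit in the median. The summit above ATPsynC, a subunit of mitochondrial ATP synthase, fell on the same base in both lines. The 3 largest shifts, just under the limit of 500 bp, belonged to peaks in a coding exon of Sesn, near lncRNA:CR44278 and in a coding exon of CG5767. At Sesn the Pita dCP1+2 peak of 296 bp lay inside the Pita wt peak of 836 bp, and at the other sites the deposited peaks of the lines did not overlap.

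Distances between neighbouring summits differed little with windows of 250 bp on each side. The nearest summit of the same list was 4172 bp away in the median for lost peaks (quartiles 1659.5 and 10595.5) and 3906.5 bp for kept Pita wt peaks (1701.75 and 8617). In Pita dCP1+2 the medians were 3667 bp for gained and 3675 bp for kept peaks. Shares were highest at both ends of the scale: 32.6% (29.4 to 36.0%) of the Pita wt peaks with a neighbour under 1000 bp were lost, 25.8% with one between 5000 and 10000 bp and 42.3% (33.9 to 51.1%) with none within 50000 bp. For gained peaks the same shares were 38.6%, 30.6% and 44.5%. A summit of the other line lay between 500 and 1000 bp away for 310 lost peaks (15.8%) and 284 gained peaks (11.6%). For comparison, 11.2% of all Pita wt and 10.5% of all Pita dCP1+2 peaks had a neighbour of their own list under 1000 bp away. On the other hand, 220 lost and 235 gained peaks had no summit of the other line within 20000 bp.

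The longest runs of gained peaks were longer than those of lost peaks, in a list with a larger share called (33.2% gained against 28.4% lost). A run is a row of consecutive peaks of a list that all have the same call. The longest lost runs held 6 peaks, one around GstS1 on 2R and one at Eip74EF, an ecdysone-induced ETS factor gene on 3L. Gained runs held at most 8 peaks apart from the 2 longest. These held 15 peaks each, and both lay on 2L, separated by 1 kept peak. Together they spanned 136 kb, chr2L:12819228-12955236, from kek1 past the adenylyl cyclase genes ACXA, ACXB, ACXC and ACXE to CG16800. This stretch, chosen after its values were seen, had 31 FLAG peaks in Pita dCP1+2, of which 30 were gained, and 2 in Pita wt. The flanks of the same length had 5 and 12 peaks in Pita dCP1+2 and 4 and 7 in Pita wt. The gained peaks of the stretch were not all weak: their median rank was 2807.5, beside 5124.5 for all gained peaks, and the best ranked 109. Of the 30 summits, 24 were intergenic and 6 were in coding exons, and the median GC content of their windows was 47.9%. CP190 peaks of Pita dCP1+2 overlapped 20 of the 30 and CP190 peaks of Pita wt overlapped 1. Over 1328 segments of 100 kb, the median was 1 gained peak, and the segments with most held 17 and 16, the former reaching past the right end of this stretch, followed by 11 on X. The copy number of the stretch in the lines was not measured, and its part was not tested.

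Lost peaks were poorer in GC than kept ones. The median GC content of the window was 53.6% for lost, 57.4% for kept Pita wt and 55.2% for gained peaks, all above the 41.8% of all 500 bp windows of the arms. Below 45% GC, 62.0% (56.4 to 67.3%, 186 of 300) of the Pita wt peaks were lost, and the share fell through 49.7%, 38.7% and 23.4% to 10.4% (8.93 to 12.0%) at 60% GC or more. Gained shares had another shape, with 28.5% (22 to 36.0%) below 45% GC, 45% and 45.3% in the middle and 18% at 60% or more.

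The same order was seen in the genes. FLAG summits lay mostly in coding exons, with 80.4% of kept Pita wt, 66.6% of lost and 73.5% of gained summits there, although coding exons cover 16.7% of the bases of the arms. Lost summits were more often intronic (13.4% against 7.53% of kept) or intergenic (12.4% against 7.09%). Read the other way, 24.8% (23.6 to 26%) of the coding Pita wt peaks were lost, beside 41.5% (37.7 to 45.4%) of the intronic and 41.0% (37.2 to 45.1%) of the intergenic peaks. In Pita dCP1+2, 31.1% of coding, 43.3% of intronic and 41.6% of intergenic peaks were gained. Within 100 bp of a transcription start lay 4.95% (4.08 to 6.00%) of lost, 2.80% (2.38 to 3.30%) of kept and 2.14% (1.64 to 2.80%) of gained summits. Within 1000 bp the shares were 37.7%, 37.5% and 33.1%. The contrast was large among strong peaks. Of the 28 lost peaks among the 300 strongest, 3 (10.7%) were in coding exons and 17 (60.7%) were intergenic. Of the 268 kept peaks on the arms among the same 300, 164 (61.2%) were in coding exons and 52 (19.4%) were intergenic.

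Peaks with a good Pita match were lost more often than others. Of 106 Pita wt peaks with a match below 1e-06, 58 (54.7%, 45.2 to 63.9%) were lost. Of 6067 peaks without a match below 1e-04, 1696 (28.0%, 26.8 to 29.1%) were lost, close to the 28.4% of all peaks. Peaks with a match between 1e-05 and 1e-04 stood at 26.3% and those between 1e-06 and 1e-05 at 42.9% (34.1 to 52.1%). In the gained class such matches were nearly absent: 1 of 2427 gained windows on the arms (0.0412%) had a match below 1e-06, beside 58 of 1959 lost (2.96%), 48 of 4924 kept (0.975%) and 0.186% of all 500 bp windows of the arms. At the looser limit of 1e-04 the classes were close, with 13.4% of lost, 11.2% of kept and 10.2% of gained windows, against 5.78% of all windows. Most FLAG peaks of either line thus had no good match. The probability of a match holds for a single position, and each window offered many positions. The windows of the arms were not matched to the peaks in GC content or coding sequence, and the part of base composition was not tested.

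The rate of loss rose as matched peaks became weaker. Among the 300 strongest Pita wt peaks, 10 of 44 matched peaks (22.7%, 12.8 to 37.0%) were lost. Between ranks 300 and 1000 it was 15 of 21 (71.4%, 50.0 to 86.2%), where 6.21% of the 612 peaks without a match were lost. Beyond rank 3000 it was 14 of 17. GC content moved with the match, since matched windows had a median of 41.6% and unmatched ones 56.4%. Among peaks below 45% GC, 63% (51.5 to 73.2%, 46 of 73) of those with a match below 1e-06 and 61.7% (55.2 to 67.8%, 140 of 227) of those without were lost. These intervals overlapped almost entirely, and the separate parts of GC content and match were not tested. Matched lost peaks lay within 500 bp of a transcription start in 37 of 58 cases and matched kept peaks in 34 of 48.

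Matched peaks that were kept stood lower in Pita dCP1+2. The fold enrichment of the 48 kept peaks with a match below 1e-06 was 0.669 times that in Pita wt in the median (quartiles 0.571 and 0.723), and it was lower in 46 of 48. For the 4385 kept peaks without a match the median ratio was 0.960 (0.888 and 1.04), and over all kept peaks 65.1% were lower. Since the lists are not on one scale, ranks were compared too. The rank, as a percentile of its list, was worse in Pita dCP1+2 for 45 of 48 matched peaks and for 43.7% of all kept peaks. The matched peaks fell by a median of 11.1 percentile points. They stood high in Pita wt, with a median rank of 115.5 beside 2972 for all kept Pita wt peaks. They thus had more room to fall than to rise, and kept peaks of equal strength without a match were not compared.

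**Figure D4:**
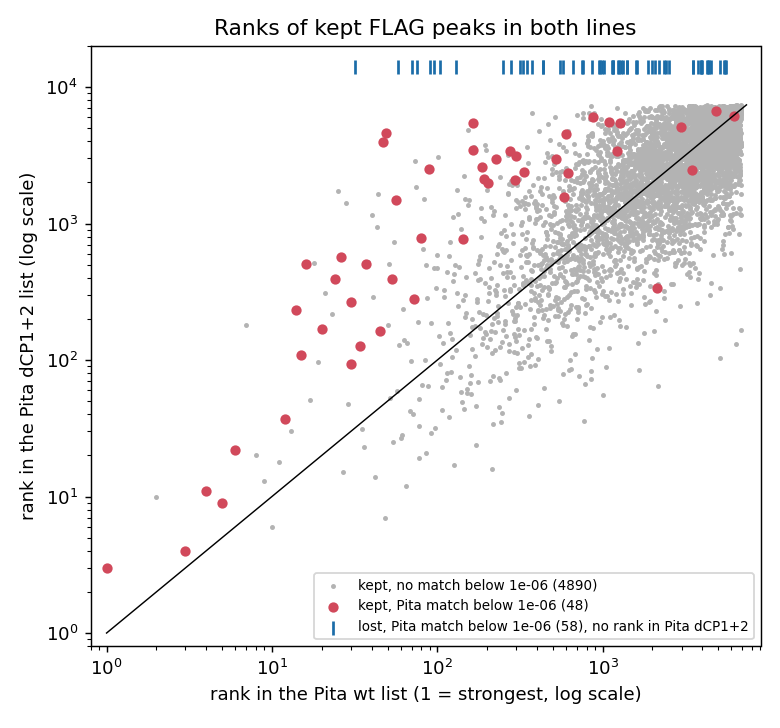
Rank of each kept FLAG peak in Pita wt (x axis, log scale) and in Pita dCP1+2 (y axis, log scale), where 1 is the strongest peak and the line marks equal rank. Larger points are the 48 kept peaks with a Pita match below 1e-06, of which 45 stand at a worse percentile in Pita dCP1+2, and ticks at the top mark the Pita wt ranks of the 58 lost peaks with such a match.

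The 5 strongest kept peaks were intergenic, close to a transcription start, and had a match below 1e-05, that of cindr at 6.99e-06 and the other 4 below 1e-06. The peak upstream of Atg8a, a ubiquitin-like protein of autophagy, had a fold enrichment of 12.4 in Pita wt (rank 1) and 6.68 in Pita dCP1+2 (rank 3). Its widths were 1876 and 1844 bp. The peak of cib, an actin-binding protein with thymosin repeats, stood at 8.68 and 5.82, and narrowed from 1141 to 477 bp. That of cindr, an adaptor protein of the CD2AP family, stood at 8.86 and 4.98. The peaks of ATPsynC and of Tlk, the Tousled-like kinase, went from 7.58 to 5.05 and from 7.85 to 4.95. All 5 summits lay within 178 bp of a transcription start and moved by at most 11 bp, and each peak kept a rank of 11 or better.

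Of the 10 strongest lost peaks, 9 lay outside coding exons and 8 had a match below 1e-05. The first was the intergenic peak 84 bp from the start of CG6073, chr3R:26188609-26189328, at rank 22 with a fold enrichment of 5.16. Its nearest Pita dCP1+2 summit was 2099 bp away. The next were an intergenic peak at CG9380 (fold enrichment 4.71), an intronic peak in nemy, which encodes a cytochrome b561 protein (4.70), and an intronic peak of 352 bp in Abd-B, the homeotic gene of the posterior abdomen (4.48, rank 39). Then came ec (4.06), snoRNA:Psi28S-3342 (3.99), an intergenic peak far from any start with spok as the nearest gene (3.96), CG3009 (3.94), CG31021 (3.89) and scrib, a gene of epithelial polarity (3.76, rank 90). Of these 10 windows 9 had a GC content below 45%, the exception being ec with 48.0%. All 10 overlapped a CP190 peak of Pita wt, and 2 of them, at CG9380 and snoRNA:Psi28S-3342, overlapped one of Pita dCP1+2. The nearest Pita dCP1+2 FLAG summit ranged from 620 bp away at scrib to 83838 bp at CG9380. Strong kept peaks shared some of these traits. Among the 100 strongest Pita wt peaks, 9 of 13 lost and 37 of 87 kept peaks had a match below 1e-05. In coding exons lay 1 of these lost and 34 of these kept peaks, and median GC contents were 40.8% and 46.2%.

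The 10 strongest gained peaks on the chromosome arms had no match below 1e-05. They were picked after the Y-linked peaks above had been seen. The first was a peak of 2218 bp in a coding exon of Hers (fold enrichment 3.22, rank 99), and the others included lncRNA:CR44183 (3.18), pico, an adaptor of actin regulation (3.16), mgl, a lipoprotein receptor of the LDL receptor family (2.98), and lncRNA:CR44971 (2.95). CG42784, CG17724, a peak with ACXC as the nearest gene, Flacc and Cngl completed the 10, at 2.91 to 2.77. Of the 10, 6 were in coding exons and 3 were intergenic, beside 73.5% and 10.1% of all gained summits on the arms. One, in Flacc, had a match below 1e-04, at 6.36e-05, and 9 windows had a GC content above 50%. They were wide, from 651 to 3316 bp. At 5 of the 10 sites, CG42784, CG17724, Flacc, pico and Hers, a lost Pita wt peak covered nearly the same bases with its summit elsewhere, 542, 890, 939, 1045 and 1854 bp away, so these regions were called in both lists by their deposited boundaries. The lost Pita wt peak at CG17724 ranked 111. The peaks at lncRNA:CR44183, at lncRNA:CR44971 and near ACXC lay in the stretch of 136 kb on 2L described above.

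Some lost and gained peaks were one broad region with 2 distant summits. The widest lost peak, of 3261 bp in pico, and the gained peak of 3316 bp there covered nearly the same bases, chrX:19833480-19836740 and chrX:19833423-19836738, with summits 1045 bp apart. In all, 221 lost peaks (11.3%) overlapped a Pita dCP1+2 peak by their deposited boundaries, 136 of them a gained peak and 85 a kept one, and their summits were 747 bp apart in the median. Their median width was 1066 bp, and that of the other lost peaks was 371 bp. Among gained peaks 155 (6.35%) did so, with a median width of 1370 bp against 429 bp. The other widest lost peaks were in coding exons of Tet and MEP-1 (2718 and 2651 bp), and the widest gained ones in uif, the clock gene per and the exoribonuclease gene pcm (3839, 3491 and 3396 bp).

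Some kept peaks changed rank by most of the list. The 5 largest falls were in CG14422, from rank 845 to 7287, in wake, a gene of sleep timing (375 to 6406), in bcd, the anterior morphogen (1228 to 7014), in a gypsy8 element inside Ugt50B3 (755 to 6451) and in Trim9 (828 to 6455). Fold enrichment at wake was 2.99 in Pita wt and 1.76 in Pita dCP1+2. The 5 largest rises were in coding exons of Papss (6884 to 165), HERC2 (6771 to 466), vex (6440 to 131), Ten-m, a teneurin (6639 to 840), and bs, the Drosophila SRF gene (6828 to 1147). At Papss the summits were 484 bp apart and a peak of 288 bp was paired with one of 1775 bp, while at Ten-m they were 18 bp apart. None of these 10 windows had a match below 1e-05.

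Named gene groups were looked up within 500 bp of a transcription start. Over all 18164 genes of the arms, 5.75% had a kept peak there, 2.77% a lost one and 2.52% a gained one. Of 92 ribosomal protein genes 11 (12.0%) had a kept, 8 (8.70%) a lost and 4 (4.35%) a gained peak. The lost ones included RpL22 (rank 436, fold enrichment 2.94), RpS15Aa (rank 501, 2.87) and RpL23 (rank 863, 2.64). The lost peak of RpL23 contained a gained summit of Pita dCP1+2 at rank 4265. RpL30 was kept at rank 165 in Pita wt and 3435 in Pita dCP1+2. Transfer RNA genes were mostly without a peak, with 1 kept, 5 lost and 2 gained among 295. Of 14 genes of replication licensing, a process for which Pita is known to be needed, none had a lost or gained peak. Orc1 and geminin had kept Pita wt peaks, at ranks 1578 and 1313. Cdc6 had a peak within this distance in Pita dCP1+2 only, at rank 7166, and that peak had a Pita wt partner. None of the 14 listed genes of architectural proteins and none of the 111 histone genes had a FLAG peak in either line. Pairs that aligned to several positions were not retained by the authors. Peaks at repeated genes, such as histone and transfer RNA genes, could therefore be missed. Among 19 heat shock genes Hsp22 and Hsp26 had kept peaks, Hsp27 a lost and Hsp23 a gained one. The start of Ubi-p63E, whose promoter drives both transgenes, had a gained peak at rank 7088, and pita and y had none.

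Between Ubx and Abd-B the Bithorax complex, chr3R:16656623-16972236, held 13 Pita wt peaks, of which 8 were kept and 5 lost. Its Pita dCP1+2 peaks were 8 kept and 2 gained ones. Over the whole lists 28.4% of peaks were lost and 33.2% gained, and the counts in the complex are too small to set it apart. The strongest Pita wt peak there was the lost one in Abd-B described above, at rank 39. Another strong lost peak was intergenic at lncRNA:CR45750, chr3R:16798527-16798946, with rank 207, a fold enrichment of 3.24 and a match of 2.59e-06, and the nearest Pita dCP1+2 summit was 11273 bp away. The remaining lost peaks ranked 4920, 4929 and 5038. A further lost match, of 3.16e-06, lay at an Abd-B start, under the peak at rank 5038. The strongest kept peak, in a coding exon of Abd-B, ranked 157 in Pita wt and 68 in Pita dCP1+2, and at abd-A the kept peak rose from rank 2111 to 348. The gained peaks, in coding sequence of Ubx and at an Abd-B start, ranked 5423 and 6620.

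CP190 was found more often at kept than at lost or gained sites. A CP190 peak of the same line overlapped 75.7% (74.4 to 76.8%) of kept and 39.0% (36.9 to 41.2%) of lost Pita wt peaks. In Pita dCP1+2 it overlapped 83.1% (82.1 to 84.2%) of kept and 54.1% (52.2 to 56.1%) of gained peaks. The gained sites had a CP190 peak of Pita wt in 34.5% of cases, and the lost sites one of Pita dCP1+2 in 44.1%. The CP190 list of Pita dCP1+2 was longer than that of Pita wt, and it overlapped more peaks of each class. At kept Pita wt peaks the shares were 83.0% and 75.7%. The CP190 list of Pita wt also had the higher self-consistency ratio. The part of list length and replicate consistency in these differences between the lines was not tested. Peaks with a match below 1e-06 had another pattern: a CP190 peak of Pita wt was present at 47 of 48 kept and 49 of 58 lost peaks, and one of Pita dCP1+2 at 17 of 48 and 6 of 58. All 4 lists share 1 control, so these overlaps are not independent of each other.

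Other short motifs differed by small amounts. The words searched on both strands were GAGAGAGA for the GAGA factor, TATCGATA for the DRE, GGTCACACT for motif 1, CACACACA, CAGGTAG for Zelda and AGGNGGCGC for the core of CTCF. CACACACA was present in 10.4% (9.09 to 11.8%) of lost, 6.66% (6.00 to 7.39%) of kept and 7.66% of gained windows, against 9.47% of all windows of the arms. The Zelda word, of a factor active at the onset of zygotic transcription, was in 3.83% of lost, 5.77% of kept and 4.99% of gained windows, against 2.71%. The CTCF word was in 3.57%, 5.18% and 3.96%, against 1.20%. GAGAGAGA, at 2.91%, 2.38% and 2.72%, was close to the 2.77% of all windows, and TATCGATA was rarer in all 3 classes, at 1.02%, 0.569% and 0.577% against 1.40%. The windows of the arms were poorer in GC than the peaks, and the part of base composition in these contrasts was not tested. The words are descriptions of letters and not of bound sites.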

How the data were processed

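Trimming by the authors used cutadapt, and alignment to dm6 used Bowtie version 2. According to the methods, concordant pairs with a single position were retained (the labels name single-end sequencing), and Picard removed duplicates. MACS2 called peaks with 1 preimmune sample as control, followed by the IDR step, which measures reproducibility. The notes also name dm3, which the methods mention for the list of excluded regions. The deposited fold enrichment is a ratio over the preimmune sample, and the deposited −log10 p-value is that of MACS2. The score deposited for reproducibility is the −log10 of the global IDR, as the authors' pipeline wrote it. Replicates are pooled in each list, so the lists allowed no test between the lines over replicates, and none was made.

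Here, peaks were ranked by fold enrichment, windows of 500 bp were compared, and GC content, features (Ensembl release 115, the same assembly) and matches to the Pita matrix were taken per window on the arms. Positions are 1-based. The sites named were the 10 strongest lost and gained peaks, the 5 strongest kept, the 5 largest falls and rises in rank, and the 3 largest shifts and widths. Members and lists were chosen with earlier results of these data known. The functions were tested on simulated data. Alternatives changed the window, the overlap, the list length, the IDR limit and the sequences used. Computations ran in Python 3.11.15 (numpy 2.4.6, scipy 1.17.1, pandas 2.3.3).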

Additional observations from a re-analysis of the deposited data

How the results depend on the processing

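The counts of kept, lost and gained peaks stayed within 1.5 times of 4938, 1963 and 2442 with windows of 100 or 500 bp on each side, with deposited boundaries, with an overlap of 250 bp and on the arms alone. Shorter lists lowered them by construction. With the 5000 strongest peaks of each list 3286 were kept, with the 3000 strongest 1930 were kept, 1073 lost and 1074 gained, and at a global IDR of 0.01 the counts were 2638, 1115 and 1555. The share of Pita wt peaks lost ranged from 24.0% with windows of 500 bp on each side to 35.7% with the 3000 strongest peaks. The median summit shift was 24 bp with windows of 100 bp, 29 bp with windows of 500 bp, 23 and 22 bp for the 5000 and 3000 strongest peaks and 24 bp at the stricter IDR. Lost peaks had a smaller median width than kept ones under each of these alternatives, from 369 to 454 bp against 523 to 596 bp. Gained peaks were also narrower than kept Pita wt peaks, but the difference shrank in shorter lists. It was 556 against 580 bp with the 3000 strongest peaks and 560 against 596 bp at the stricter IDR. The median neighbour distance was 4995 bp for lost, 3665 bp for kept and 4156 bp for gained peaks with windows of 500 bp on each side. With deposited boundaries it was 4631, 3792 and 3765 bp. Of 126 planned values, 66 left the interval of the main setting, or for counts the range of 1.5 times. In alternatives chosen after the data were seen, the share lost among peaks with a match below 1e-06 was 43.4% with windows of 500 bp, 50.9% with deposited boundaries and 57.5% with windows of 100 bp. No paired analysis was possible because the replicates of each line are pooled in 1 list, and for the same reason no replicate could be left out. Read depth was not known, so an absent peak and one just below the authors' threshold cannot be told apart, and likewise for gained peaks.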
